A study of Mus musculus with 10 samples.

Results

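The BCL2 family decides at the outer mitochondrial membrane whether a cell starts apoptosis. Pro-survival members (Mcl1, Bcl2l1, which encodes BCL-XL, and Bcl2) hold the pore-forming effectors Bax and Bak1 in check, and the BH3-only members Bcl2l11 (BIM), Bbc3 (PUMA), Bid, Bad and Bmf bind the pro-survival proteins or, for some of them, the effectors themselves. Hepatocytes are known to depend on MCL1 and BCL-XL, and BIM and BMF are known for their control by FOXO factors and other stress signals. Here 10 family genes were picked by symbol out of 16697 gene entries in an RNA sequencing table of mouse liver. They are 3 pro-survival, 5 BH3-only and 2 effector genes, and all 10 were listed and tested.

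The 10 libraries came from normal liver (NL, n = 4), from liver tumours induced by c-MYC with the empty pT3-EF1α plasmid (c-MYC, n = 3) and from tumours induced by c-MYC with FOXO1AAA in the same plasmid (c-MYC/FOXO1AAA, n = 3). Plasmids were delivered by hydrodynamic tail vein injection, which targets hepatocytes, and were inserted by a transposase. FOXO1AAA is a form of the transcription factor FOXO1 that AKT can no longer inactivate, and it was driven here by the EF1α promoter rather than by its own. Every sample is labelled wild type and C57BL/6, whereas the extraction protocol and the methods name FVB or FVB/N for the normal livers and the study's plasmid records name FVB/N for the tumours, and no age or sex is given per sample. Both tumour groups received c-MYC, and no plasmid is named for NL, so NL may differ from the tumours in the injection as well as in the tumour. The descriptions of the c-MYC control tumours differ on whether a plasmid for MCL1 was injected as well, and whether reads of such a plasmid would be counted at mouse Mcl1 is not given in the sources used here. The study used the tumours to ask what active FOXO1 does in c-MYC tumours.

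Between 13123719 and 20547746 reads per library lay in listed genes. The level of Foxo1 checked the label, since c-MYC/FOXO1AAA libraries averaged 83.1 FPKM ± 12.8 (SD, n = 3), c-MYC libraries 5.63 ± 0.721 (SD, n = 3) and NL libraries 7.14 ± 0.532 (SD, n = 4). Mouse Myc was lower in both tumour groups than in NL, at 16 to 55 reads per tumour library, so its row does not check the c-MYC label. All 6 hepatocyte markers were detected in every group, but their summed level was 73590.4 to 81389 FPKM in NL, 3233 to 5078 in c-MYC and 812 to 1463 in c-MYC/FOXO1AAA. The libraries are from whole tissue, so fewer cells of a type and less RNA per cell cannot be told apart.

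FPKM scale the fragments of a gene by its length and by the size of the library, and the deposited values were log2 FPKM. A difference was called with limma treat, which asks whether a change exceeds 1.5-fold, at a Benjamini-Hochberg adjusted p under 0.05 over all 14017 genes tested. Replicates are separate samples in the labels, which do not say that each was a separate animal, so p-values measure the spread between these samples.

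The promoters of the 2 members called between the tumour groups, Bcl2 and Bcl2l11, and of Mcl1, the most abundant pro-survival gene as deposited, are shown first. They are RefSeq promoter windows of 300 bases on GRCm38.p6, from 250 bases before to 50 after each start, 5′ to 3′ on the strand of the gene. Capitals mark the FOXO site letters GTAAACA or CAAAACA and the MYC E-box letters CACGTG on either strand. Bcl2l11 has 2 windows. On GRCm38 the genes span chr1:106538178-106714274 (Bcl2, ENSMUSG00000057329.7), chr2:128126038-128162547 (Bcl2l11, ENSMUSG00000027381.16) and chr3:95658788-95663176 (Mcl1, ENSMUSG00000038612.16).
Bcl2, chr1:106714241-106714540, minus strand: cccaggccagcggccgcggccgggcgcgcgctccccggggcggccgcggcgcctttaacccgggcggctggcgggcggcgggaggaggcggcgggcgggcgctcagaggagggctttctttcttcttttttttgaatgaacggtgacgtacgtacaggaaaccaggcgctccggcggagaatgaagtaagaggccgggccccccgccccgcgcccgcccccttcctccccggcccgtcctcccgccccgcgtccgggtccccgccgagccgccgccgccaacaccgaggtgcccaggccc
Bcl2l11 window 1, chr2:128125788-128126087, plus strand: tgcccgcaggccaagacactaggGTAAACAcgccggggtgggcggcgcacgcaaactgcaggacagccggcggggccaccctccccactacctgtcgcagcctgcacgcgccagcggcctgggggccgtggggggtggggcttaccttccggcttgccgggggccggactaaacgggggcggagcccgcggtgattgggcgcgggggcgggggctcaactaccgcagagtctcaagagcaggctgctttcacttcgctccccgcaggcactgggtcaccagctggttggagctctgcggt
Bcl2l11 window 2, chr2:128127325-128127624, plus strand: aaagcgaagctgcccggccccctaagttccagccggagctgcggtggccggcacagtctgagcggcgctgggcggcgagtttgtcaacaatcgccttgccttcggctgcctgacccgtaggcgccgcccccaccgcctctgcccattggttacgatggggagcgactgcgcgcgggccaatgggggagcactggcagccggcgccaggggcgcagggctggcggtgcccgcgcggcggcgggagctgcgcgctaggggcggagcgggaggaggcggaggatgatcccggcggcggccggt
Mcl1, chr3:95658471-95658770, plus strand: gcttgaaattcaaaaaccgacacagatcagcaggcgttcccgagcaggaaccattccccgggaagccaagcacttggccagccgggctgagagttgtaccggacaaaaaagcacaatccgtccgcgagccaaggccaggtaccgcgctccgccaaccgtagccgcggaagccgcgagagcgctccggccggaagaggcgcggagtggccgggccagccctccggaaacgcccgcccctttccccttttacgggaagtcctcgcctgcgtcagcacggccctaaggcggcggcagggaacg
One match was found in these windows, GTAAACA at position -227 of Bcl2l11 window 1, counted from its start. Of all 32851 RefSeq promoter windows of this length, 3.65% hold GTAAACA, 6.28% hold CAAAACA and 7.15% hold CACGTG on either strand. Each motif was searched on its own, so overlapping matches would have counted for each. Among the 18 windows of the 10 members, 4 held any of the 3 motifs. The others were a GTAAACA on the minus strand at -167 of Bbc3 window 2, a CACGTG at -64 of Bbc3 window 3 and a pair of CACGTG at -9 and 36 of Bax. A match is a string of letters and not a measured binding site. The Bcl2 window had 76% G and C bases and 44 CG pairs, the Mcl1 window 65.7% and 33, and the median promoter window 52.7% and 7.

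Bcl2 was the member with the largest difference between the tumour groups. It is a pro-survival gene of lymphocytes and many other cells. In normal liver Bcl2 was close to the limit of detection, with 16, 5, 9 and 20 reads in NL 1 to 4 (0.552, 0.228, 0.366 and 0.826 FPKM). In c-MYC 1 to 3 it had 15, 20 and 19 reads (0.329, 0.415 and 0.406 FPKM), and in c-MYC/FOXO1AAA 1 to 3 it had 984, 1501 and 824 reads (14.1, 17.7 and 14.8 FPKM). NL and c-MYC overlapped, and all 3 c-MYC/FOXO1AAA libraries lay far above both. The log2 fold change of c-MYC/FOXO1AAA over c-MYC was 5.34 ± 0.41 (SE, adjusted p = 3.64e-06), or 40.6-fold, and over NL it was 5.13 ± 0.38 (SE, adjusted p = 8.45e-07), or 35-fold. Between c-MYC and NL the log2 difference was -0.21 with a 95% interval of -1.06 to 0.63. Bcl2 reached 1 FPKM only in the c-MYC/FOXO1AAA libraries and so passed the filter on low values through that group alone. Without the filter its log2 fold change over c-MYC was again 5.34 (adjusted p = 2.76e-06). With a pseudocount of 1 FPKM the value was 3.58, since the counts in the other groups are small.

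Some markers of other cell types were higher in the same libraries as Bcl2. The 6 stellate cell and fibroblast markers, all detected in every group, summed to 299 to 403 FPKM in c-MYC/FOXO1AAA, 7.01 to 23.8 in c-MYC and 77.1 to 98.8 in NL. Most of the c-MYC/FOXO1AAA sum was Dcn and Des, which averaged 236 and 62.7 FPKM there. Between the tumour groups 4 of the 6 were called higher (15.9% of all genes), and Lrat and Col1a1 were not called. Against NL 4 were higher in c-MYC/FOXO1AAA and 1 was lower (31.2% and 26.6% of all genes). The lower one was Lrat, at 0.278 against 3.85 FPKM. The 3 of 4 B cell markers that were listed summed to 7.72 to 12.3 FPKM in c-MYC/FOXO1AAA, 0.641 to 1.16 in c-MYC and 0.611 to 2.16 in NL. Nearly all of that sum was Cd79a, which averaged 9.52 FPKM ± 2.48 over the c-MYC/FOXO1AAA libraries (SD, n = 3). The 5 endothelial markers summed to 25.6 to 40.6 FPKM in c-MYC/FOXO1AAA, 9.73 to 16.8 in c-MYC and 44.9 to 60.1 in NL, and Cdh5 alone averaged 26 FPKM in c-MYC/FOXO1AAA and 4.61 in c-MYC, whereas Pecam1, Kdr and Stab2 were not called between the tumour groups. The 3 listed of 5 T and NK cell markers had their lowest sum in c-MYC/FOXO1AAA, at 0.912 to 1.27 FPKM. Of these, Cd3g averaged 0.457 FPKM there and 0.361 in c-MYC. Macrophage markers summed to 41.1 to 66.9 FPKM in c-MYC/FOXO1AAA, 43.3 to 55.5 in c-MYC and 174 to 305 in NL. Cholangiocyte markers summed to 4.72 to 11.9, 15.4 to 30.8 and 2.36 to 4.63 FPKM in the same order. Between the tumour groups 1 macrophage marker was called higher, Clec4f, and 0 lower. Of the 3 cholangiocyte markers tested, Krt19 was called higher and Epcam lower (15.9% and 12.7% of all genes). Krt19 passed the filter on low values only with c-MYC/FOXO1AAA. The part of these cells in the Bcl2 level was not tested. The exons of Bcl2 overlap those of the antisense gene D630008O14Rik over 558 bases, and the strand setting of the counting is not given in the sources used here.

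Bcl2l11, which encodes the BH3-only protein BIM, was the other member called between the tumour groups. It stood at 2.41, 2.17, 3.16 and 3.54 FPKM in NL 1 to 4, at 2.04, 1.94 and 1.83 in c-MYC 1 to 3 and at 7.26, 7.5 and 6.32 in c-MYC/FOXO1AAA 1 to 3. The 3 groups did not overlap, with c-MYC lowest and c-MYC/FOXO1AAA highest. The log2 fold change of c-MYC/FOXO1AAA over c-MYC was 1.86 ± 0.2 (SE, adjusted p = 0.000282), or 3.62-fold, and over NL it was 1.34 ± 0.19 (SE, adjusted p = 0.00254). The log2 difference of -0.52 between c-MYC and NL was not called (adjusted p = 0.891). The study itself displayed Bcl2l11 among FOXO1 targets from these libraries, so its rise is not independent evidence. Reads of Bcl2l11 numbered 102 to 159 in NL, 167 to 186 in c-MYC and 622 to 1125 in c-MYC/FOXO1AAA.

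**Figure D1:**
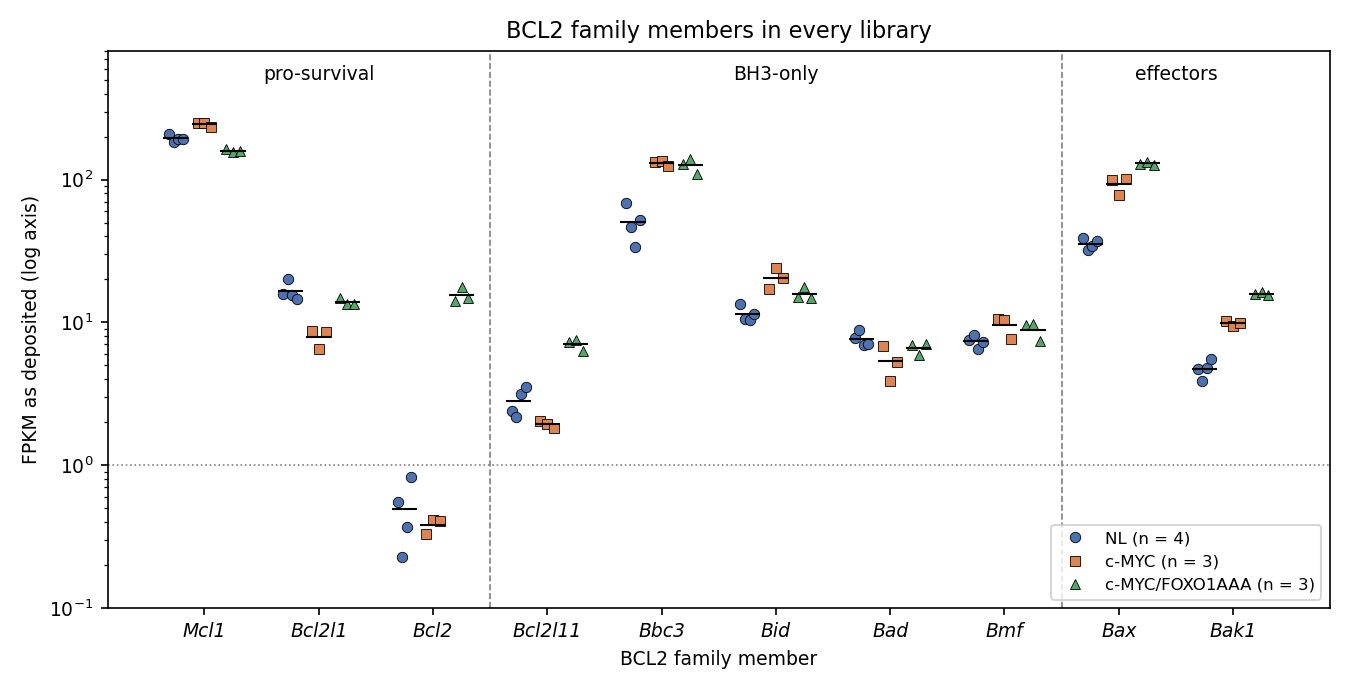
FPKM as deposited (log axis) of the 10 members in every library, with points for libraries, bars for group means, dashed lines between the classes and a dotted line at 1 FPKM. Bcl2 lies below 1 FPKM in all NL and c-MYC libraries and between 14.1 and 17.7 in c-MYC/FOXO1AAA, and Mcl1 is highest in c-MYC.

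Mcl1, the short-lived pro-survival member that hepatocytes depend on, differed less between groups. It stood at 209.7, 185, 192 and 193 FPKM in NL 1 to 4, at 248, 251 and 235 in c-MYC 1 to 3 and at 163, 155 and 158 in c-MYC/FOXO1AAA 1 to 3. The groups did not overlap, and the order was c-MYC, NL and c-MYC/FOXO1AAA from high to low. The log2 difference of c-MYC/FOXO1AAA from c-MYC was -0.63 ± 0.09 (SE, 95% interval -0.82 to -0.43). It was not called above 1.5-fold (adjusted p = 0.718), whereas limma without a fold-change threshold gave an adjusted p of 0.000108. The differences of c-MYC and of c-MYC/FOXO1AAA from NL were 0.33 ± 0.08 and -0.3 ± 0.08 (SE), neither called. Both depend on the scaling of the libraries. The difference of c-MYC from NL was positive in every alternative, and it was called at the same FPKM total (1.26, adjusted p = 8.93e-06) and under quantile normalization (0.99, adjusted p = 0.000491), in a range of 8.93e-06 to 1 over the alternatives. The difference of c-MYC/FOXO1AAA from NL changed sign. With each library scaled to the same FPKM total it was 0.8 (adjusted p = 0.0155, in a range of 0.00554 to 1 over the alternatives), in a setting where the median of all genes lay at 1.31 in place of 0.21.

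Bcl2l1, which encodes BCL-XL, was lower in c-MYC than in NL. It stood at 15.8, 20.1, 15.5 and 14.6 FPKM in NL 1 to 4, at 8.71, 6.48 and 8.56 in c-MYC 1 to 3 and at 14.8, 13.4 and 13.4 in c-MYC/FOXO1AAA 1 to 3. The c-MYC libraries lay below all others, and the NL and c-MYC/FOXO1AAA libraries overlapped. The log2 fold change of c-MYC against NL was -1.06 ± 0.14 (SE, adjusted p = 0.00887). Scaled to the same FPKM total it was -0.13 and not called (adjusted p = 1, in a range of 4.88e-05 to 1 over the alternatives), with the median of all genes at 1.01 in place of 0.08. The difference of c-MYC/FOXO1AAA from c-MYC was 0.82 ± 0.15 (SE) and was not called (adjusted p = 0.218). That difference was called after scaling to the same total (adjusted p = 0.0428, in a range of 0.00089 to 1 over the alternatives).

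Both effectors rose in the tumours. Bax, which moves from the cytosol to mitochondria when activated, stood at 39, 32.1, 34.2 and 37.2 FPKM in NL 1 to 4, at 100, 77.6 and 101 in c-MYC 1 to 3 and at 129.7, 134 and 127 in c-MYC/FOXO1AAA 1 to 3. Bak1, which sits in the mitochondrial membrane, stood at 4.68, 3.87, 4.77 and 5.56 FPKM in NL 1 to 4, at 10.3, 9.41 and 9.9 in c-MYC 1 to 3 and at 15.7, 16.2 and 15.5 in c-MYC/FOXO1AAA 1 to 3. In both genes the 3 groups did not overlap, with NL lowest and c-MYC/FOXO1AAA highest. Against NL, Bax had a log2 fold change of 1.38 ± 0.11 in c-MYC (SE, adjusted p = 6.88e-05) and 1.88 ± 0.11 in c-MYC/FOXO1AAA (SE, adjusted p = 1.06e-06). Bak1 had 1.08 ± 0.13 (SE, adjusted p = 0.00368) and 1.75 ± 0.13 (SE, adjusted p = 5.6e-06). Between the tumour groups, the differences of 0.5 ± 0.12 in Bax and 0.68 ± 0.13 in Bak1 (SE) were not called above 1.5-fold. Without the fold-change threshold their adjusted p were 0.00465 and 0.00141. The ratio of Bax to Bak1 in FPKM averaged 7.62 ± 0.824 over NL (SD, n = 4), 9.37 ± 1.01 over c-MYC (SD, n = 3) and 8.27 ± 0.0349 over c-MYC/FOXO1AAA libraries (SD, n = 3), and all 3 groups overlapped. Exons of Bak1 overlap those of Ggnbp1 on the other strand over 614 bases, and those of Bax overlap Gm45808 over 192 bases.

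Bbc3, the p53-inducible gene for PUMA, was the only BH3-only member called between c-MYC and NL. It stood at 68.2, 46.6, 33.8 and 52.2 FPKM in NL 1 to 4, at 132, 135 and 124 in c-MYC 1 to 3 and at 129, 139 and 109 in c-MYC/FOXO1AAA 1 to 3. Every tumour library lay above every NL library, and the tumour groups overlapped. The log2 fold change against NL was 1.42 ± 0.2 in c-MYC (SE, adjusted p = 0.00215) and 1.36 ± 0.2 in c-MYC/FOXO1AAA (SE, adjusted p = 0.00261), and the tumour groups differed by -0.06 with a 95% interval of -0.52 to 0.41. The SD of Bbc3 was 14.2 FPKM around a mean of 50.2 in NL and 15.4 around 126 in c-MYC/FOXO1AAA.

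The other BH3-only members were not called in any comparison. Bid, which caspase 8 cleaves to link death receptors to mitochondria, ranged from 10.4 to 13.4 FPKM in NL, 17.2 to 24.1 in c-MYC and 14.8 to 17.6 in c-MYC/FOXO1AAA. Its difference of c-MYC from NL was 0.84 ± 0.14 on the log2 scale (SE, adjusted p = 0.0947), and it was called when NL 1 was left out (adjusted p = 0.0407) or c-MYC 1 was left out (adjusted p = 0.0299), in a range of 1.2e-05 to 1 over its alternatives. Bad, which growth factor signalling inactivates through 14-3-3 binding, ranged from 6.93 to 8.78 FPKM in NL, 3.89 to 6.84 in c-MYC and 5.87 to 7 in c-MYC/FOXO1AAA. Bmf, which is held at the cytoskeleton by dynein light chain 2, ranged from 6.51 to 8.21 FPKM in NL, 7.64 to 10.5 in c-MYC and 7.38 to 9.69 in c-MYC/FOXO1AAA. Its groups overlapped in all 3 comparisons, and between the tumour groups its 95% interval of the log2 difference was -0.46 to 0.27. Bcl2l11 and Bmf, both known from other systems as FOXO targets, had different results in the same test, and the difference between both genes was not tested. Exons of Bid overlap those of the relative Bcl2l13 over 628 bases, and those of Bad overlap Gpr137 over 524 bases, in both cases on the opposite strand.

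Counted over the family, c-MYC against NL had 3 members higher (Bax, Bak1 and Bbc3) and 1 lower (Bcl2l1), where 24.5% of all genes tested were called higher and 23.6% lower. In c-MYC/FOXO1AAA against c-MYC, 2 were higher (Bcl2 and Bcl2l11) and 0 lower, beside 15.9% and 12.7% of all genes. None was lower in that comparison at an unadjusted treat p under 0.05 or by limma voom on the recovered reads either. In c-MYC/FOXO1AAA against NL, 5 were higher (Bcl2, Bcl2l11, Bbc3, Bax and Bak1) and 0 lower, beside 31.2% and 26.6%, and again none was lower at an unadjusted treat p or by voom. With every library scaled to the same FPKM total, the counts were 6 higher and 0 lower for c-MYC against NL, 3 and 0 for c-MYC/FOXO1AAA against c-MYC, and 8 and 0 for c-MYC/FOXO1AAA against NL. Of all 14017 genes, that scaling called 7061 higher and 1895 lower, 2594 and 1482, and 8129 and 2099 in the same comparisons. Without the fold-change threshold 8 (5 higher, 3 lower), 6 (5 and 1) and 7 (6 and 1) members were called in either direction, with Mcl1 the 1 lower in both comparisons of c-MYC/FOXO1AAA, beside 74.4%, 54.8% and 80.5% of all genes. Groups did not overlap in 8, 6 and 7 members, beside 73.9%, 63.4% and 80.1% of all genes. These shares are close to those of all genes in most comparisons. Each pair of comparisons shares the libraries of 1 group.

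**Figure D2:**
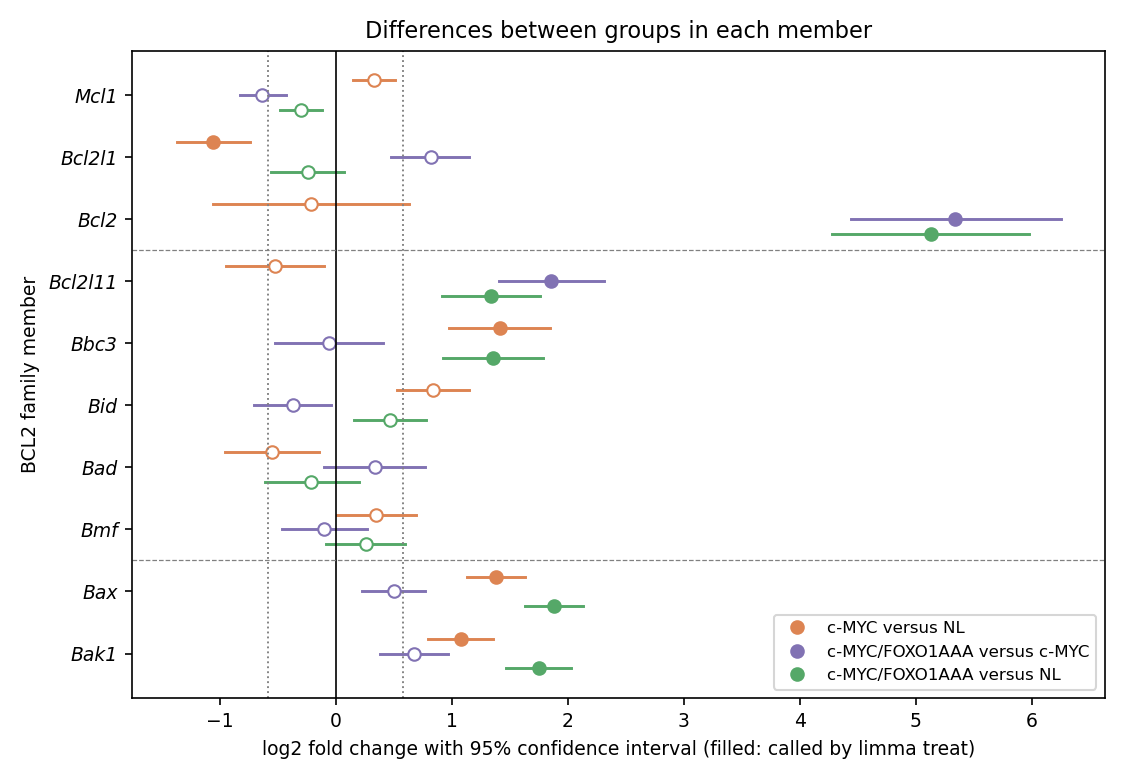
Log2 fold change of each member in the 3 comparisons, with bars for the 95% confidence interval, filled points for calls by limma treat and dotted lines at a change of 1.5-fold. Bcl2 stands apart at 5.34 and 5.13 in the comparisons with c-MYC/FOXO1AAA, and Bcl2l1 is the only filled point left of 0.

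By class, 3 of the 7 BH3-only and effector members rose and 0 fell in c-MYC against NL (24.5% and 23.6% of all genes), with a median log2 difference of 0.84 where the median of all genes was 0.08. Of the 3 pro-survival members, 0 rose and 1 fell there, with a median of -0.21. Between the tumour groups, 1 of the 7 and 1 of the 3 rose and 0 fell (15.9% and 12.7% of all genes), with medians of 0.34 and 0.82 beside 0.03 for all genes. Between c-MYC/FOXO1AAA and NL, 4 of the 7 and 1 of the 3 rose and 0 fell (31.2% and 26.6% of all genes), with medians of 1.34 and -0.24 beside 0.21. The difference between the classes was not tested.

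Levels of different genes can be compared only per length, and the length behind the deposited FPKM was not the same kind for all members. For Mcl1 it was 858 bases, where the longest annotated transcript has 3418, for Bbc3 485 against 1814 and for Bcl2 2841 against 7191. For Bcl2l11, Bid, Bmf and Bak1 it was that of the longest transcript. As deposited, the order in NL was Mcl1, Bbc3, Bax, Bcl2l1, Bid, Bad, Bmf, Bak1, Bcl2l11 and Bcl2, and only the neighbours Bbc3 and Bax and the neighbours Bad and Bmf overlapped. In c-MYC/FOXO1AAA as deposited, Bid, Bak1, Bcl2 and Bcl2l1 followed each other at 15.8, 15.8, 15.6 and 13.9 FPKM, each overlapping the next. With the reads divided by the longest transcript, Mcl1 remained the highest in NL at 48.9 FPKM ahead of Bax at 28.1. On that scale Bax and Mcl1 overlapped in c-MYC, at 73.2 and 61.4 FPKM, and Bax stood above Mcl1 in c-MYC/FOXO1AAA, at 103 and 39.8 FPKM. Bcl2 was then the lowest member in c-MYC/FOXO1AAA, at 6.14 FPKM beside Bad at 6.25 with overlap, and no longer level with Bid, Bak1 and Bcl2l1. Differences between groups within 1 gene do not depend on this length.

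Sums over the classes describe the balance between pro-survival and pro-death transcripts, and as deposited they are mostly Mcl1, Bbc3 and Bax. Bbc3 averaged 130 of a BH3-only sum of 167 FPKM in c-MYC, and 126 of 164 in c-MYC/FOXO1AAA. Bax averaged 92.8 of an effector sum of 103 FPKM in c-MYC, and 130.5 of 146 in c-MYC/FOXO1AAA. Between the tumour groups, none of Mcl1, Bbc3 and Bax was called. The summed FPKM of the 3 pro-survival genes over that of the 7 others averaged 1.79 ± 0.22 over NL (SD, n = 4), 0.937 ± 0.0412 over c-MYC (SD, n = 3) and 0.607 ± 0.0421 over c-MYC/FOXO1AAA libraries (SD, n = 3), with no overlap between groups. With the longest transcripts the values were 0.866 ± 0.0725, 0.446 ± 0.0232 and 0.31 ± 0.0156 (SD, the same n), in the same order. The effector sum over the pro-survival sum was 0.19 ± 0.0125 in NL, 0.407 ± 0.0617 in c-MYC and 0.779 ± 0.027 in c-MYC/FOXO1AAA (SD, as deposited). With the longest transcripts it was 0.508 ± 0.0469, 1.21 ± 0.165 and 2.01 ± 0.0694, so that the effector sum exceeded the pro-survival sum in both tumour groups on that scale alone. Mcl1 made up 92% ± 1.25 of the pro-survival sum in NL, 96.7% ± 0.538 in c-MYC and 84.3% ± 0.906 in c-MYC/FOXO1AAA (SD, as deposited), and Bcl2 made up 0.232% ± 0.123, 0.152% ± 0.0209 and 8.29% ± 1.12. With the longest transcripts the share of Mcl1 was 75.7% ± 3.19, 89% ± 1.73 and 67.5% ± 0.849, and that of Bcl2 in c-MYC/FOXO1AAA was 10.4% ± 1.4. Bcl2 and Bcl2l11 both rose in c-MYC/FOXO1AAA against c-MYC, and the ratio of Bcl2 to Bcl2l11 as deposited was 0.171 ± 0.0696 in NL, 0.199 ± 0.0326 in c-MYC and 2.22 ± 0.239 in c-MYC/FOXO1AAA (SD). With the longest transcripts it was 0.0674 ± 0.0275, 0.0787 ± 0.0129 and 0.876 ± 0.0942, so which of both genes was higher in c-MYC/FOXO1AAA depends on the length used. The ratio of Mcl1 to Bcl2l11 as deposited was 71.8 ± 16.6 in NL, 126 ± 3.96 in c-MYC and 22.7 ± 2.14 in c-MYC/FOXO1AAA (SD), and with the longest transcripts it was 18 ± 4.16, 31.7 ± 0.994 and 5.69 ± 0.538. These sums and ratios describe transcripts and not proteins, and no test was made on them.

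**Figure D3:**
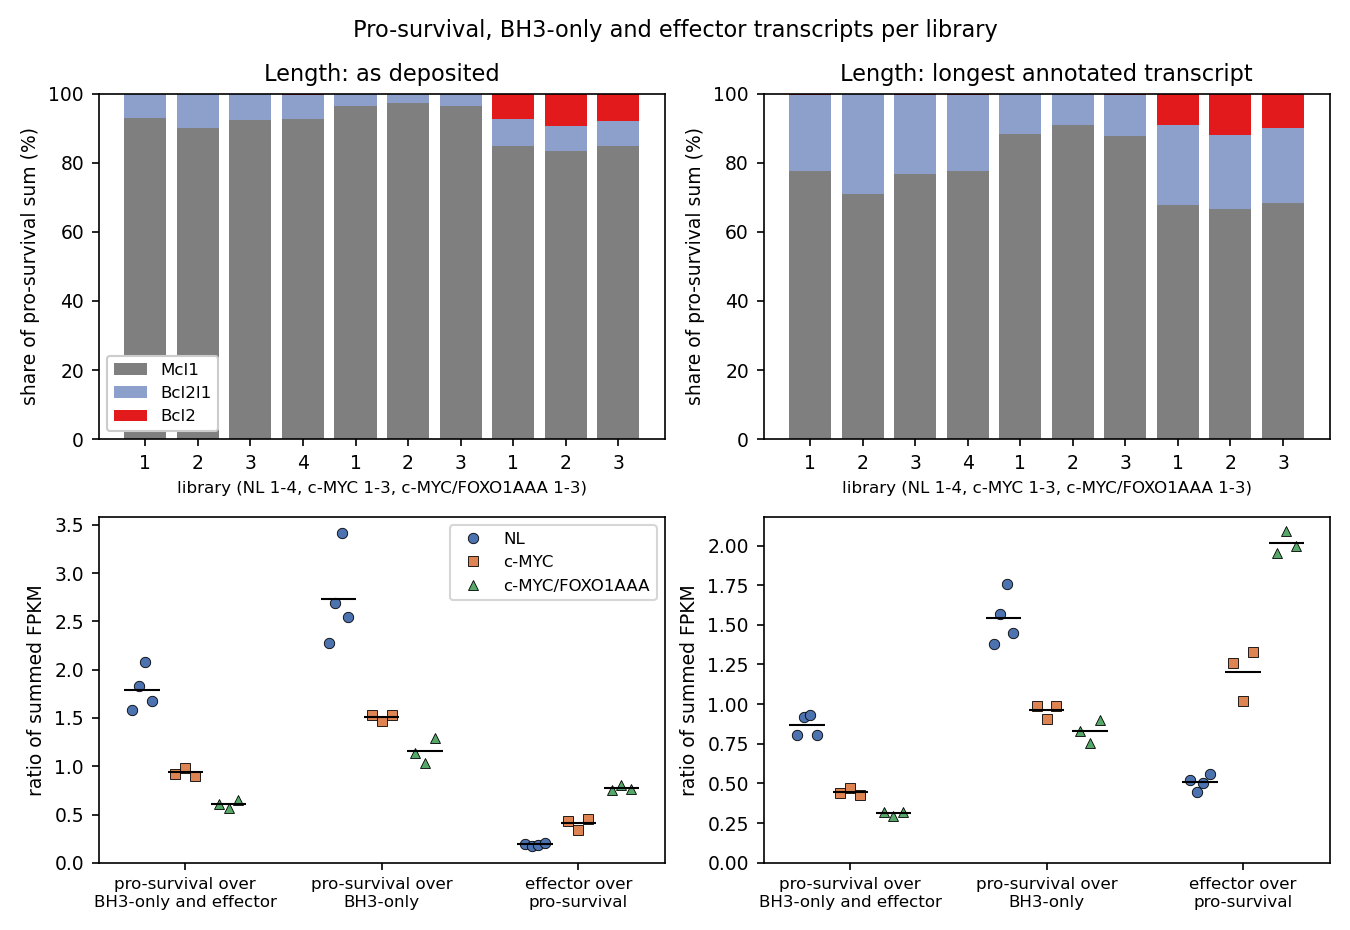
Top, share of each pro-survival gene in the pro-survival sum per library (%); bottom, ratios of summed FPKM with points for libraries and bars for group means, with the deposited length on the left and the longest annotated transcript on the right. Bcl2 takes 7.36% to 9.53% in the c-MYC/FOXO1AAA libraries as deposited and at most 0.397% in the others, and the ratio of pro-survival to BH3-only and effector transcripts falls from NL through c-MYC to c-MYC/FOXO1AAA on both lengths.

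The genes whose pattern over the 10 libraries was most like that of a member were named among 8114 genes that averaged 10 FPKM or more in 1 group. Closest to Bcl2 were Penk (r = 0.9936), Mturn (r = 0.993) and Smox (r = 0.9913), and Penk, which encodes the precursor of enkephalins, averaged 489 FPKM ± 102 over the c-MYC/FOXO1AAA libraries (SD, n = 3) and held 0 to 4 reads in every other library. Closest to Bcl2l11 were Atp10a (r = 0.98), C1qtnf7 (r = 0.9779) and Ddit4l (r = 0.9774). Closest to Mcl1 were Sigirr (r = 0.9909), Mink1 (r = 0.9883) and Abcd4 (r = 0.9878), and closest to Bmf were Zc3h7b (r = 0.887), Ppp6r3 (r = 0.8772) and Sbf2 (r = 0.8764). The libraries form 3 groups, so these Pearson correlations mostly follow the order of the group means.

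Among family relatives, Bcl2l2, which encodes the pro-survival protein BCL-W, fell in both tumour groups. The NL libraries averaged 9.31 FPKM ± 0.775 (SD, n = 4), the c-MYC libraries 2.93 ± 0.279 (SD, n = 3) and the c-MYC/FOXO1AAA libraries 4.87 ± 0.648 (SD, n = 3). Against NL it had a log2 fold change of -1.67 ± 0.14 in c-MYC (SE, adjusted p = 2.64e-05) and -0.94 ± 0.14 in c-MYC/FOXO1AAA (SE, adjusted p = 0.0234). Bcl2a1b held 0 to 28 reads per library and was below the filter.

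Of the 10 other pro-death and atypical relatives, 8 were listed and 7 tested. Bok, an effector-like member, averaged 14 FPKM ± 2.31 over c-MYC and 60.6 ± 5.24 over c-MYC/FOXO1AAA libraries (SD, n = 3 each), a rise of 2.13 ± 0.14 on the log2 scale (SE, adjusted p = 4.47e-06). Pmaip1, the p53 target that encodes NOXA and binds MCL1, had 0 to 7 reads in NL, 50 to 71 in c-MYC and 234 to 389 in c-MYC/FOXO1AAA. It reached 1 FPKM in tumour libraries only and so passed the filter through them. It was called against NL in c-MYC (adjusted p = 0.00347) and in c-MYC/FOXO1AAA (adjusted p = 5.28e-05), and its log2 difference of 1.92 ± 0.66 between the tumour groups was not called (SE, adjusted p = 0.115). Bik, another BH3-only gene, was called lower between the tumour groups, with c-MYC/FOXO1AAA against c-MYC at a log2 fold change of -2.41 ± 0.28 (SE, adjusted p = 0.000239). The mitophagy receptor genes Bnip3 and Bnip3l moved in opposite directions between the tumour groups. Bnip3 fell by 1.08 on the log2 scale (adjusted p = 0.0203), and Bnip3l rose by 1.14 (adjusted p = 0.00142) after standing 1.21 lower in c-MYC than in NL (adjusted p = 0.000239). Bcl2l12 and Bcl2l13 were not called in any comparison, and Hrk, with 28 to 88 reads in c-MYC/FOXO1AAA and 0 to 9 elsewhere, was below the filter.

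The enzymes that set MCL1 protein stability were measured because MCL1 is regulated largely by turnover. Of 8 genes, 7 were listed and 6 tested, with 2 higher and 0 lower in c-MYC against NL, 1 higher and 1 lower in c-MYC/FOXO1AAA against c-MYC, and 2 higher and 0 lower in c-MYC/FOXO1AAA against NL. Over all genes tested, the shares called higher and lower in these comparisons were 24.5% and 23.6%, 15.9% and 12.7%, and 31.2% and 26.6%. Usp13, a deubiquitinase, held 0 to 1 reads in NL, 14 to 65 in c-MYC and 406 to 638 in c-MYC/FOXO1AAA. It rose by 3.53 ± 0.47 on the log2 scale between the tumour groups (SE, adjusted p = 0.000317). Usp13 reached 1 FPKM in 0 NL, 2 c-MYC and 3 c-MYC/FOXO1AAA libraries, so it passed the filter on low values only with c-MYC/FOXO1AAA. Btrc, part of a ubiquitin ligase, fell by 1.26 there (adjusted p = 0.00591). Cdc20, a mitotic activator of the anaphase-promoting complex, averaged 3.68 FPKM ± 2.57 over NL (SD, n = 4) and 99.5 ± 10.5 over c-MYC libraries (SD, n = 3), a rise of 5.01 on the log2 scale (adjusted p = 6.16e-06). Huwe1, Fbxw7 and Usp9x were not called in any comparison.

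Of the 10 genes for binding partners of the BH3-only and effector proteins, 5 rose and 0 fell in c-MYC against NL (24.5% and 23.6% of all genes). Dynll1, a dynein light chain that binds BIM, rose by 2.88 ± 0.25 on the log2 scale (SE, adjusted p = 9.71e-06), and Ywhaq, a 14-3-3 gene, rose by 1.11 (adjusted p = 0.000973). Dynll2, whose product binds BMF, was the 1 gene that fell in c-MYC/FOXO1AAA against c-MYC, by 1.27 ± 0.12 (SE, adjusted p = 0.000512), and 0 rose (12.7% of all genes fell and 15.9% rose). Against NL, 5 were higher in c-MYC/FOXO1AAA (31.2% of all genes), with Dynll1 at 2.58 (adjusted p = 1.86e-05) and Ywhaz at 1.77 (adjusted p = 1.46e-06), and 1 was lower (26.6% of all genes), Dynll2 at -2.04 (adjusted p = 3.63e-07).

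Downstream of the mitochondria, the 12 genes of the apoptosome and caspase cascade moved in both directions. In c-MYC against NL, 3 rose and 3 fell (24.5% and 23.6% of all genes), and the median log2 difference was -0.22. Apaf1, the scaffold of the apoptosome, rose by 2.82 ± 0.28 (SE, adjusted p = 2.88e-05) and Htra2 by 2.57 (adjusted p = 2.38e-06), while Casp9, the initiator caspase of the apoptosome, fell by 1.46 (adjusted p = 0.00125). Of these, Apaf1 reached 1 FPKM in tumour libraries only and so passed the filter through them. Between the tumour groups, 1 rose and 4 fell (15.9% and 12.7% of all genes). Endog, a mitochondrial nuclease, fell by 2.9 (adjusted p = 4.29e-06) and Dffa, the inhibitor of the caspase-activated nuclease, by 1.52 (adjusted p = 0.000118). Against NL, c-MYC/FOXO1AAA had 3 higher and 5 lower (31.2% and 26.6% of all genes), with Apaf1 at 2.67, Htra2 at 1.98 and Endog at -2.72.

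The inhibitors of apoptosis are 5 genes, of which 1 rose and 1 fell in c-MYC against NL (24.5% and 23.6% of all genes). Birc5 (survivin), which also acts in mitosis, rose by 4.58 ± 0.46 on the log2 scale (SE, adjusted p = 1.99e-05), and Xiap, the caspase inhibitor, fell by 1.06 (adjusted p = 0.00228). Birc3 fell in c-MYC/FOXO1AAA against c-MYC, by 2.55 ± 0.29 (SE, adjusted p = 0.000173), and 0 rose (12.7% of all genes fell and 15.9% rose). Against NL, Birc5 was higher in c-MYC/FOXO1AAA (3.94, adjusted p = 4.94e-05), and Birc3 (-2.17, adjusted p = 0.000201) and Xiap (-1.47, adjusted p = 1.91e-05) were lower. Of the 9 listed genes of the death receptor arm, 1 rose and 5 fell in c-MYC against NL (24.5% and 23.6% of all genes), with a median of -1.15. Cflar, which blocks caspase 8, fell by 2.44 ± 0.16 (SE, adjusted p = 1.62e-06) and Ltbr by 1.28 (adjusted p = 0.000214), and the receptor gene Tnfrsf10b, with 1 to 10 reads in NL and 73 to 129 in c-MYC, was called higher (adjusted p = 0.000881). Tnfrsf10b reached 1 FPKM in tumour libraries only and so passed the filter through them. Fas was the 1 gene called in c-MYC/FOXO1AAA against c-MYC, where it fell by 1.11 ± 0.14 (SE, adjusted p = 0.0085). Against NL, c-MYC/FOXO1AAA had 1 higher and 6 lower (31.2% and 26.6% of all genes), led by Tnfrsf10b at 4.78, Fas at -2.27 and Cflar at -2.2.

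The 10 p53 and stress genes hold genes upstream of BH3-only members and also other p53 targets such as Cdkn1a. Of these 10, 4 rose and 2 fell in c-MYC against NL (24.5% and 23.6% of all genes). Cdkn1a, the p53 target that encodes p21, averaged 1.31 FPKM ± 0.577 over NL (SD, n = 4), 24.5 ± 5.36 over c-MYC (SD, n = 3) and 47.5 ± 4.19 over c-MYC/FOXO1AAA libraries (SD, n = 3), and its rise from NL to c-MYC was 4.31 ± 0.3 on the log2 scale (SE, adjusted p = 1.23e-06). E2f1 rose by 3.1 (adjusted p = 5.94e-06). The stress factor gene Ddit3 and Trp53inp1 fell in c-MYC against NL, by 1.2 (adjusted p = 0.000305) and 1.18 (adjusted p = 0.0137). They were the 2 genes that rose in c-MYC/FOXO1AAA against c-MYC, by 0.92 (adjusted p = 0.0293) and 2.05 (adjusted p = 0.00013), with 0 lower (15.9% of all genes rose and 12.7% fell). Against NL, c-MYC/FOXO1AAA had 4 higher and 0 lower (31.2% and 26.6% of all genes), led by Cdkn1a at 5.28 and E2f1 at 3.12.

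**Figure D4:**
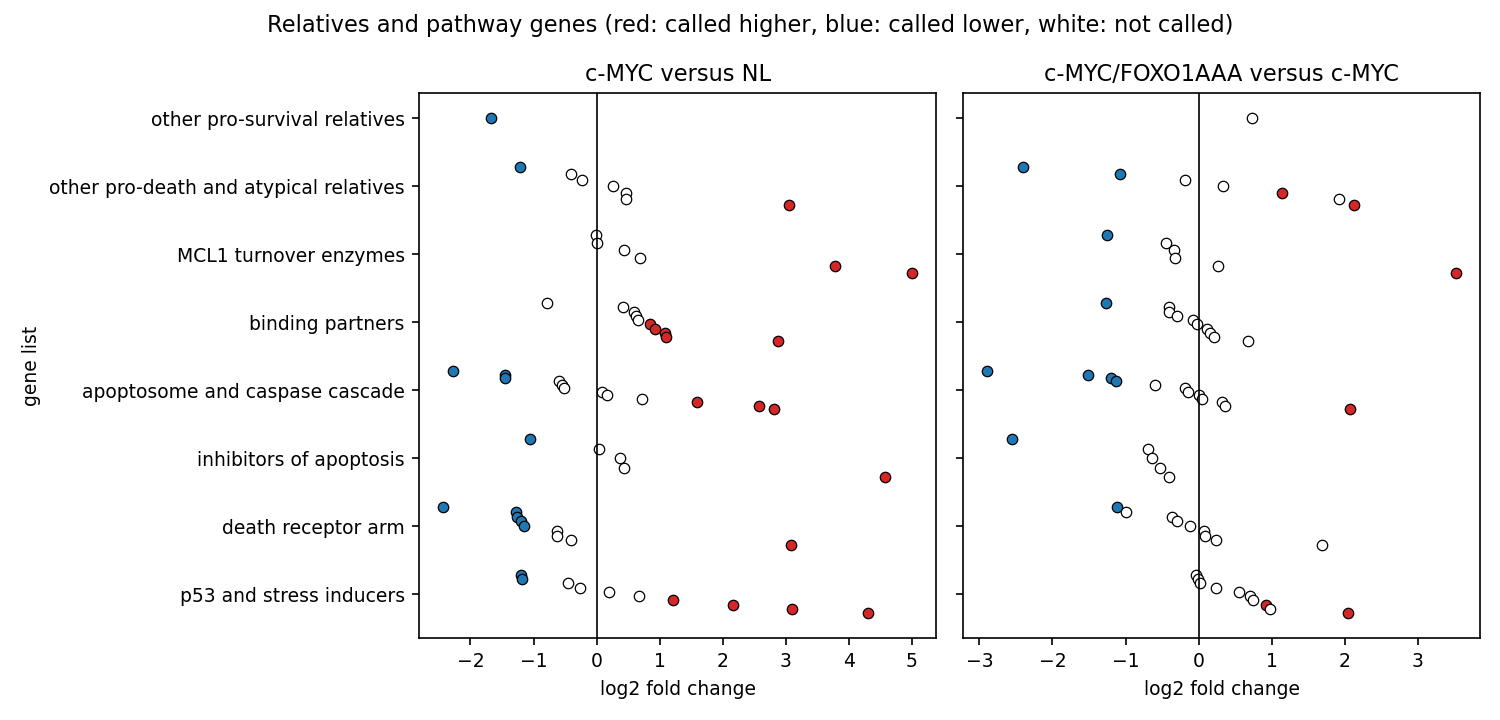
Log2 fold change of each tested relative and pathway gene by list, in c-MYC against NL on the left and c-MYC/FOXO1AAA against c-MYC on the right, with filled points for calls by limma treat. Of the 8 lists, 5 hold genes called in both directions on the left and 3 on the right, and Usp13, Bok and Trp53inp1 are among the red points above 2 on the right.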

How the data were processed

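RNA sequencing was performed on 10 mouse liver samples in 3 groups, placed by their titles. The authors deposited log2 FPKM. By the study's methods they counted reads by gene and worked in R with edgeR, and the processing notes name GRCm38 and FastQC 0.11.7. The aligner and the counting tool are not given in the sources used here. The values give whole reads with a prior count of 2 added before the logarithm, so log2 fold changes understate low genes. Whole reads were recovered for 16690 of 16697 genes (99.96%, tolerance 0.001 reads), and 372 entries without a symbol or values were left out.

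For each gene, group means over the 10 libraries were estimated in 1 model by limma 3.58.1 under R 4.3.3 with statmod 1.5.0, for genes with at least 1 FPKM in at least 3 libraries, with treat at 1.5-fold, trend and robust estimation, 2-sided. It was tested on simulated data in which few genes changed and all others were equal between groups. That test does not cover the many changed genes or the differences in library scaling seen here. The authors' effective library sizes were 0.6486 to 0.6838 of the recovered reads in NL, 1.2561 to 1.2946 in c-MYC and 1.4537 to 1.5021 in c-MYC/FOXO1AAA. Depth sets the precision of low genes. Reads of replicates varied by more than counting error. Their chi-square per degree of freedom was 9.3 to 34.9 for pairs of libraries within a group. Annotation is GENCODE M21 on GRCm38.

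Named are all members, Foxo1, Myc, the relatives, per list and comparison the 2 largest called changes in each direction (some of these are not reported here), and the 3 genes closest to Mcl1, Bcl2, Bcl2l11 and Bmf. Marker genes and the other genes named only by count or as not called were added after the values were seen. The members and lists were chosen with earlier results of these data known. Alternatives changed pseudocount, filter, scaling, threshold, model, groups, replicate block, each library and the test (voom on reads), and division by the longest transcript was chosen after seeing the data.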

Additional observations from a re-analysis of the deposited data

How the results depend on the processing

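Of 684 recomputed member values, 644 kept their direction and their side of the threshold. The number of members called in c-MYC against NL was 4 and ranged from 1 at a 2-fold threshold to 8 without a fold-change threshold. In c-MYC/FOXO1AAA against c-MYC it was 2, with 6 without a threshold and 0 at a mean of at least 5 FPKM, where Bcl2 and Bcl2l11 were not tested and 0 of the 8 members left had an unadjusted p under 0.05 by limma treat at 1.5-fold. In c-MYC/FOXO1AAA against NL it was 5, with 3 at that filter, 3 at a 2-fold threshold and 8 at the same FPKM total. Over all genes, that filter called 2500 higher and 2711 lower of 8919 there, and the 2-fold threshold 3162 and 2885 of 14017. The 2-fold threshold called 2192 higher and 2420 lower in c-MYC against NL. The filter called 989 higher and 1291 lower of 8919 in c-MYC/FOXO1AAA against c-MYC. Leaving out each library in turn gave 4 to 5, 2 and 5 members, and moved Bcl2 in c-MYC against NL over -0.53 to 0.09, and Bbc3 and Bmf in c-MYC/FOXO1AAA against c-MYC over -0.13 to 0.04 and -0.25 to 0.03. Changes of sign touched only values that were not called in the deposited scaling. With the same FPKM total these were, in c-MYC against NL, Bcl2 (0.72), Bcl2l11 (0.41) and Bad (0.38), in c-MYC/FOXO1AAA against c-MYC, Bbc3 (0.11) and Bmf (0.07), and in c-MYC/FOXO1AAA against NL, Mcl1 (0.8), Bcl2l1 (0.86) and Bad (0.89). That scaling puts the median of all genes at 1.01, 0.2 and 1.31 in place of 0.08, 0.03 and 0.21, and relative to it these log2 values were -0.29, -0.6, -0.63, -0.09, -0.13, -0.51, -0.45 and -0.42. Quantile normalization gave Bcl2 0.13, Bbc3 0.25 and Mcl1 0.63 in the same comparisons. Without NL replicate 4, Bcl2 was 0.09 in c-MYC against NL, and without c-MYC/FOXO1AAA replicate 3, Bbc3 was 0.04 and Bmf 0.03 against c-MYC. With the replicate number as a block, Bcl2 was 0.09 in c-MYC against NL, and the counts of members called remained 4, 2 and 5. Deviations of samples with the same number correlated by -0.04 to 0.027, so the numbers were not taken to pair samples. Over the 6 pathway lists, 49 recomputed counts moved by more than 1.5 times and 365 did not. In Bcl2, 5 to 20 reads per library in NL and c-MYC limit the size of the fold change.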
